A study of Homo sapiens with 5 samples.

Results

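The sites that an ATF3 antibody precipitated from ATF3-WT cells after CPT were set against the sites that the same antibody precipitated from ATF3-KO cells. The members were the 70702 peaks called in the ATF3-CPT library and the 2231 peaks called in the ATF3-KO library, 72933 of the 123989 peaks in the 5 lists of the series. A site was shared when an ATF3-KO peak and a wild-type peak had at least 1 bp in common, and the third list used to sort the ATF3-KO peaks was that of ATF3-Ctrl, with 33966 peaks.

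All cells were HCT116, a human colon cancer cell line. ATF3 was wild-type in the ATF3-CPT cells, which were exposed to CPT at 1.5 μM during 4 h, and in the ATF3-Ctrl cells, which were given DMSO. The ATF3-KO cells were also given DMSO. The ATF3-KO line was 1 clone made with an adeno-associated virus and homologous recombination in exon 3 of ATF3. Every library came from chromatin fixed in a first step with DSG (1 mM, 45 min) and then with formaldehyde (1%, 10 min). The p53-CPT and p53-KO libraries, made with a p53 antibody from CPT-treated p53 wild-type cells and DMSO-treated p53-knockout cells, were used beside single results. Because ATF3-CPT and ATF3-KO differed in genotype and in treatment, the effect of each cannot be told apart in a direct comparison of them.

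CPT traps topoisomerase I on DNA and causes strand breaks. ATF3 is a basic leucine zipper protein of the ATF/CREB family whose expression rises under many stresses, including DNA damage. Such proteins bind as dimers, either to the ATF/CRE element or, with partners of the JUN family, to the closely related AP-1 element. A peak in cells without the protein shows what the antibody, the crosslinking and the sequencing yield when the target is missing.

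Peaks took up 12.76% of the 15457013 tags of ATF3-CPT, 5.60% of the 12947516 tags of ATF3-Ctrl and 0.56% of the 12820520 tags of ATF3-KO. Each condition had 1 library, so no difference has a replicate check. The 95% intervals given here cover counting error only. A score is the value that the peak caller gave a peak, and a normalized tag count is given per 10000000 tags of the library. The score is not the number of tags in the listed window. The lowest normalized tag count of a listed ATF3-KO peak was 6.2, whereas 11 tags are worth 8.58. The lowest listed score was 11 in ATF3-KO and 9 in both wild-type lists, so a site with a lower score was listed as no peak.

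The ATF3 gene served as a first check of the knockout. At its own promoter, the ATF3-CPT peak had a normalized tag count of 278.8 (95% Poisson interval 253 to 306) and the ATF3-Ctrl peak one of 313.6. The nearest ATF3-KO peak lay 2780746 bp away. The edit lies in exon 3, away from this promoter peak, so the lists do not read the deletion itself.

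Sequences of 9 sites are shown because they carry the classes on which the comparison turned. They were read from the GRCh37 reference, which has the build of the peak lists (hg19), on the plus strand, and contain no annotated exon. Capitals mark matches on either strand to the ATF/CRE core TGACGTCA, the AP-1 core (TGACTCA or TGAGTCA) or the ETS core CCGGAAG.

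The first 3 are promoter sites with the ATF/CRE core that had a peak in all 3 ATF3 lists: DDX51 (chr12:132628873-132628997), TRMO (chr9:100684464-100684588) and CYCS (chr7:25165082-25165206), the gene for cytochrome c.
DDX51: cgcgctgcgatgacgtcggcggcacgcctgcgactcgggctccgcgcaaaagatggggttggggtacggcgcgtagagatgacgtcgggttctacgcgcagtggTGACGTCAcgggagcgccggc
TRMO: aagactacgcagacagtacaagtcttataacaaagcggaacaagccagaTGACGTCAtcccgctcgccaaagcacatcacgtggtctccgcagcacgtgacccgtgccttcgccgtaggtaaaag
CYCS: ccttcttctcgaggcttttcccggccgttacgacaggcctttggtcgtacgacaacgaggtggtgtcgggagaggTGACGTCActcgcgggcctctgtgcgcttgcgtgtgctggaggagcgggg

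The next 2 are sites away from promoters with the AP-1 core and a peak in all 3 ATF3 lists, named by the nearest protein-coding gene: B3GAT1 (chr11:134721829-134721953) and NID1 (chr1:236260461-236260585). The core recurs within both.
B3GAT1: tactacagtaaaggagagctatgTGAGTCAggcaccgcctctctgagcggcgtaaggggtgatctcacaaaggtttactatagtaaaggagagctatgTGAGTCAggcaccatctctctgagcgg
NID1: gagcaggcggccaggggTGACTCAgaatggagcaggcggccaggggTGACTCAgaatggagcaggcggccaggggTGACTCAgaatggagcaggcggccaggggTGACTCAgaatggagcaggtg

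The promoters of EPRS1 (chr1:220219850-220219974), CDC73 (chr1:193091020-193091144) and EIF4B (chr12:53399938-53400062) are sites with an ATF3-KO and an ATF3-CPT peak and no overlapping ATF3-Ctrl peak. None of them holds the ATF/CRE or the AP-1 core. The centre of the nearest ATF3-Ctrl peak lay 311, 202 and 175 bp from the ATF3-KO peak centre, in this order.
EPRS1: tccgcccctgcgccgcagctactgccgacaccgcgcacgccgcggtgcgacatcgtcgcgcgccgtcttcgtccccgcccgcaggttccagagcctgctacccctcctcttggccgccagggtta
CDC73: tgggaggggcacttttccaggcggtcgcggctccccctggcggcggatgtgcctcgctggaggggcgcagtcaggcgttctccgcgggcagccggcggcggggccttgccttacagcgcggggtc
EIF4B: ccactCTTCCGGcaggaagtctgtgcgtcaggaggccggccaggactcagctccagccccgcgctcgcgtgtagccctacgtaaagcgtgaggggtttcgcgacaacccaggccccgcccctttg

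The promoter site of STK40 (chr1:36852173-36852297) is a strong ATF3-CPT peak without an ATF3-KO peak.
STK40: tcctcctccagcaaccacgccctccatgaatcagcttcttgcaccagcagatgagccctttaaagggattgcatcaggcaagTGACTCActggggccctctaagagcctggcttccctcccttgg

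To ask which background peaks recurred after damage, the 2231 ATF3-KO peaks were sorted by the wild-type lists that shared them. The ATF3-CPT list shared 1835 of them (82.3%), and the ATF3-Ctrl list, which is shorter, shared 1828 (81.9%). Both lists shared 1689 peaks (75.7%), so most of the knockout background recurred with and without damage. A set of 146 peaks (6.54%, 95% Wilson interval 5.59 to 7.65) was shared with ATF3-CPT and not with ATF3-Ctrl. The reverse set, shared with ATF3-Ctrl and not with ATF3-CPT, held 139 peaks (6.23%, 5.30 to 7.31), and the intervals of these shares overlap. The remaining 257 peaks (11.5%) were in neither wild-type list.

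The sets of ATF3-KO peaks differed in strength and in place. The median score was 17 in the peaks that both wild-type lists shared, 12 in those shared with ATF3-CPT and not ATF3-Ctrl, 13 in those shared with ATF3-Ctrl and not ATF3-CPT and 12 in those that neither shared. A score of 20 or more was reached by 672 peaks of the first set and by 8, 12 and 15 of the others. The share of peaks within 2 kb of a TSS of a protein-coding gene was 67.4% (65.1 to 69.6) in the first set. It was 54.6% (46.4 to 62.6) in the set shared with ATF3-CPT and not ATF3-Ctrl, 20.6% (14.6 to 28.3) in the set shared with ATF3-Ctrl and not ATF3-CPT, and 26.9% (21.8 to 32.8) in peaks of neither wild-type list. With repeat-rich sites included, the intervals of the sets that ATF3-CPT shared therefore lay above those of the sets that it did not share.

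**Figure D1:**
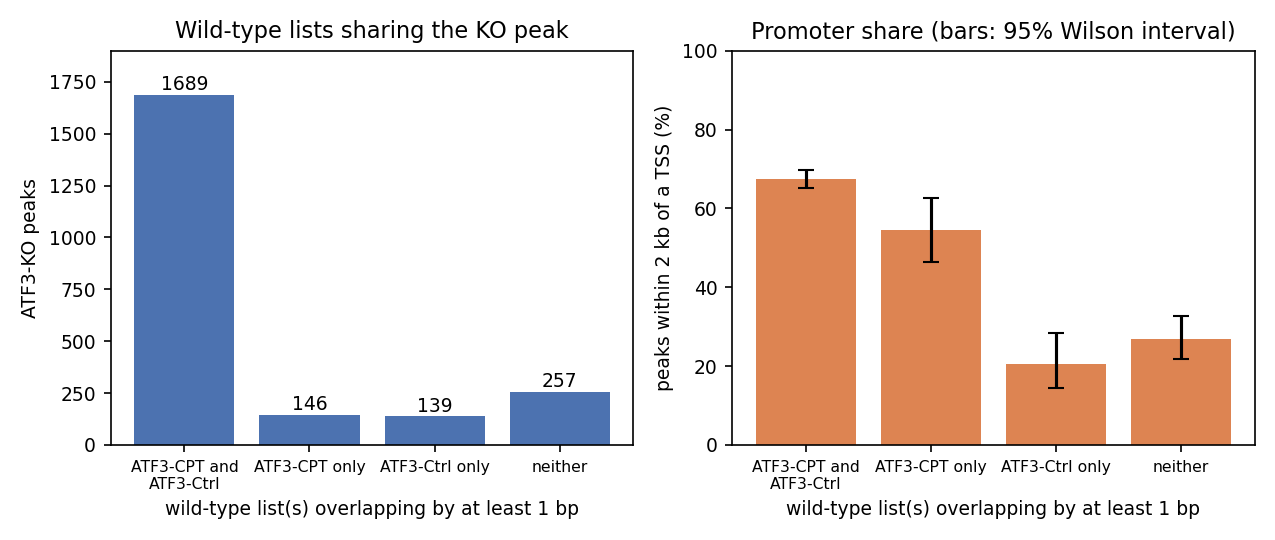
Number of ATF3-KO peaks (left) and percent of them within 2 kb of a TSS on chromosomes 1 to 22, X and Y (right, with 95% Wilson intervals), by the wild-type list or lists that shared them. The 1689 peaks of both lists had the highest promoter share, 67.4%, and the 139 peaks of ATF3-Ctrl only had the lowest, 20.6%.

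Base composition and repeats moved with these sets. The median GC content of a 200 bp window was 65% in both sets that ATF3-CPT shared, 46.5% in the set shared with ATF3-Ctrl and not ATF3-CPT, and 53.5% in peaks of neither list. Windows of low complexity made up 10.97%, 14.2%, 39.7% and 35.5% of the 4 sets in the order above. Sites within 2 Mb of an assembly gap of at least 1 Mb, such as those at centromeres, made up 14.2%, 5.67%, 42.0% and 15.5%. Without the gap-flanking and low-complexity peaks, 48 ATF3-KO peaks remained shared with ATF3-Ctrl and not ATF3-CPT, against 139 with them. The promoter share then was 64.4% in the set shared with ATF3-CPT and not ATF3-Ctrl, and 46.7% in peaks of neither list. It was not computed for the set shared with ATF3-Ctrl and not ATF3-CPT.

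Many of the 146 sites shared with ATF3-CPT and not ATF3-Ctrl lay close to a threshold. Their ATF3-CPT peaks had a median score of 14 (quartiles 11 and 19), and 60 of them had a score of 12 or less. An ATF3-Ctrl peak that did not overlap had its centre within 500 bp of 47 of the 146 sites (32.2%). When the ATF3-CPT list was shortened by score to the length of the ATF3-Ctrl list, 51 sites were shared with ATF3-CPT and not ATF3-Ctrl, and 361 with ATF3-Ctrl and not ATF3-CPT. The order of these sets thus changed with the number of wild-type peaks admitted.

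The highest-scoring promoter site of the 146 was EPRS1, the gene for the glutamyl-prolyl tRNA synthetase. It had a normalized tag count of 21.1 in ATF3-KO and 37.5 in ATF3-CPT, a ratio of 1.78 (1.11 to 2.93). The CDC73 promoter, whose gene encodes a subunit of the PAF1 complex in transcription elongation, had 13.3 in ATF3-KO and 24.6 in ATF3-CPT, a ratio of 1.85 (1.02 to 3.50). The interval of the ratio included 1 at the promoter of the translation initiation factor EIF4B (14 and 22, ratio 1.57, 0.861 to 2.95). It also included 1 at the promoter of the circadian repressor PER1 (10.9 and 15.5) and at that of COIL, the gene for the Cajal body protein coilin (11.7 and 11.6). The sites with the highest scores in the set were elsewhere. The peak whose nearest gene was ZNF33B, 727897 bp from its TSS, had 489.8 in ATF3-KO and 242 in ATF3-CPT. The nearest ATF3-Ctrl peak centre lay 201 bp from the PER1 site, 176 bp from the ZNF33B site and 17094 bp from the COIL site. Of the 93 protein-coding genes with a promoter peak of this set, 50 had an ATF3-Ctrl peak elsewhere in their promoter.

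Sequence cores separated the classes further. The ATF/CRE core lay within 200 bp around the centre of 130 of 1632 ATF3-KO peaks that both wild-type lists shared (7.97%, 6.75 to 9.38), against 0.0613% of flanking windows of the same length. It was found in 0 of 141 peaks shared with ATF3-CPT and not ATF3-Ctrl, which allows a share of up to 2.13%. It was also found in 0 of 131 peaks shared with ATF3-Ctrl and not ATF3-CPT and in 0 of 245 in neither list, which allow up to 2.29% and 1.22%. Because these sets scored lower, peaks of score 11 to 14 were compared alone. Among these, the core lay in 32 of 638 peaks that both wild-type lists shared (5.02%, 3.57 to 6.99) and in 0 of 115 peaks shared with ATF3-CPT and not ATF3-Ctrl.

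The AP-1 core showed another pattern. It lay in 43.6% of the ATF3-CPT peaks without an ATF3-KO peak, against 3.41% of their flanks. It lay in 3.98% (3.14 to 5.04) of the ATF3-KO peaks that both wild-type lists shared, against 1.84% of their flanks, and in 2.84%, 1.53% and 1.22% of the other ATF3-KO sets. For comparison, a 200 bp window centred on a TSS held the ATF/CRE core in 1.71% and the AP-1 core in 2.45% of the 20163 protein-coding genes. The ATF/CRE core was in 10.1% of the 1100 promoter peaks that all 3 ATF3 lists shared and in 3.45% of the 13079 promoter peaks of ATF3-CPT without ATF3-KO.

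Cores of other promoter factors also occurred. The ETS core CCGGAAG lay in 15.01% of the ATF3-KO peaks shared by both wild-type lists and in 11.3% of those shared with ATF3-CPT and not ATF3-Ctrl. It lay in 3.82% and 2.45% of the sets that ATF3-CPT did not share, and in 9.60% of all TSS windows. The core of NRF1, a regulator of nuclear genes for mitochondrial proteins, was searched as GCGCA followed by TGCGC or by GGCGC and lay in 8.52%, 7.80%, 3.05% and 2.86% of the 4 sets, against 3.57% of all TSS windows. The CA repeat, searched as 6 units in a row, lay in 5.71% of the peaks in neither list and in 0.306% of those in both. These searches covered both strands, the motifs do not contain each other, and a match describes the sequence and not a bound factor.

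**Figure D2:**
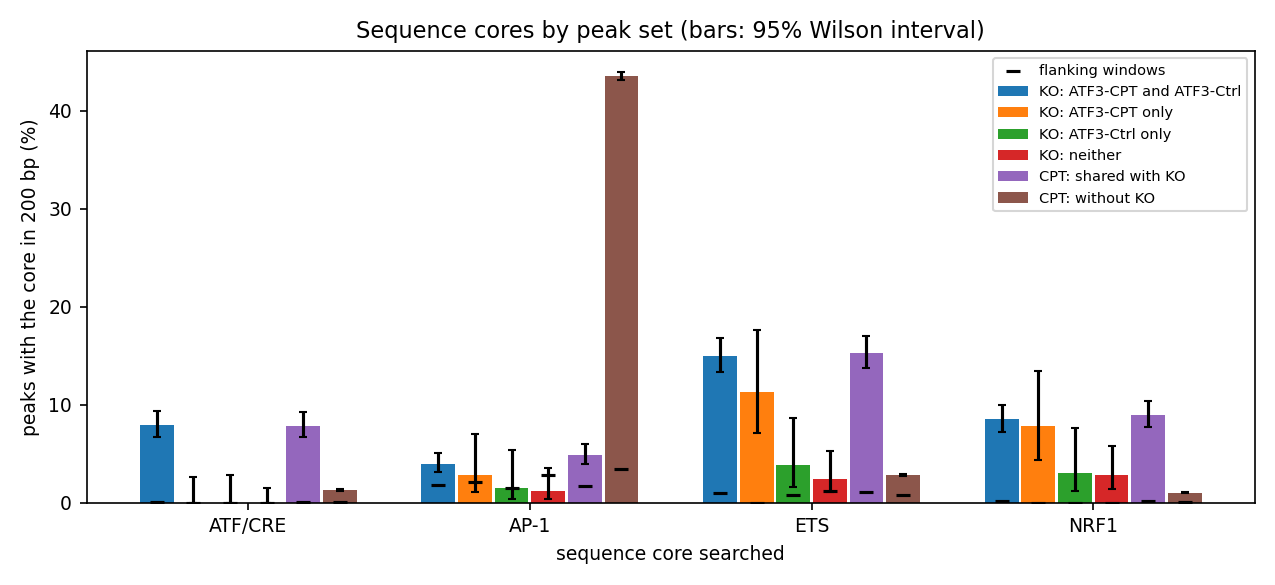
Percent of peaks with each sequence core within 200 bp around the centre, for 4 sets of ATF3-KO peaks and 2 sets of ATF3-CPT peaks, with 95% Wilson intervals. The dashes are flanking windows. The AP-1 bar of ATF3-CPT peaks without ATF3-KO stands at 43.6%, and the ATF/CRE core is absent from the 3 smaller ATF3-KO sets.

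The strength of binding at shared sites was compared by the ratio of normalized tag counts, ATF3-CPT over ATF3-KO. Where several ATF3-CPT peaks overlapped, the one with the best score was taken. Over the 1835 shared ATF3-KO peaks, the median ratio was 1.76 (95% interval of the median 1.66 to 1.85). ATF3-CPT was at least 2-fold higher at 782 sites (42.6%) and ATF3-KO at least 2-fold higher at 134 (7.3%). The ATF3-KO windows were 198 bp long and the ATF3-CPT windows 124 bp, and per base of window the median ratio was 2.81, with 1200 sites at least 2-fold higher in ATF3-CPT and 8 in ATF3-KO. In the 146 sites shared with ATF3-CPT and not ATF3-Ctrl, the median ratio was 0.95 (0.83 to 1.00), and 13 and 10 sites passed 2-fold in the respective directions. Per base of window that ratio became 1.52.

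Promoter sites and other sites went different ways. At 1177 promoter sites the median ratio was 2.11 (2.04 to 2.16), and ATF3-CPT was at least 2-fold higher at 639 and ATF3-KO at 2. At 596 sites outside promoters the median ratio was 0.77 (0.73 to 0.83), with 138 sites higher in ATF3-CPT and 117 higher in ATF3-KO. This direction turned with window length, since per base the ratio outside promoters was 1.22 (196 and 6 sites past 2-fold in ATF3-CPT and ATF3-KO), while the promoter ratio was 3.37.

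The sites with a recognised core had higher median ratios than the other shared sites. At 130 sites with the ATF/CRE core the median ratio was 3.64 (3.32 to 4.02), and ATF3-CPT was at least 2-fold higher at 124 and ATF3-KO at 0. At 69 sites with the AP-1 core and no ATF/CRE core the median ratio was 5.58 (4.02 to 7.99), with 62 and 0 sites past 2-fold. At 1574 sites with neither core it was 1.62 (1.58 to 1.71). These held 591 of the 782 sites at least 2-fold higher in ATF3-CPT, among them the one nearest to ZNF469 (ratio 20.5). The ATF/CRE and AP-1 sites also differed in the ratio between the wild-type libraries. The median of ATF3-CPT over ATF3-Ctrl was 1.29 at the ATF/CRE sites and 2.16 at the AP-1 sites, whereas ATF3-Ctrl over ATF3-KO was 2.93 and 2.67. At the AP-1 sites the median ATF3-KO count was 10.1 (quartiles 8.6 and 11.7). The tag threshold of the ATF3-KO list, 11, is worth 8.58, and the lowest count in that list was 6.2. Peaks held 12.76% of the tags of ATF3-CPT and 5.60% of those of ATF3-Ctrl, and the part of this in the ratios was not tested.

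Individual sites show the range. The CTU2 promoter, a gene for tRNA thiolation, had normalized tag counts of 83.5 in ATF3-KO, 236.3 in ATF3-Ctrl and 243.9 in ATF3-CPT. DDX51, the gene for an RNA helicase of ribosome synthesis, had 70.2, 149.1 and 166.9 in the same order, and MAPKAPK5, the gene for a stress-activated kinase, had 81.1, 179.2 and 203.1. At these 3 promoters the knockout signal was high and the wild-type libraries were close to each other. CYCS had 9.4 in ATF3-KO, 52.5 in ATF3-Ctrl and 106.7 in ATF3-CPT, and TRMO had 9.4, 51 and 132.6. In both, ATF3-KO had the lowest and ATF3-CPT the highest count. The AP-1 site whose nearest gene was B3GAT1, at a signed distance of -439656 bp from its TSS, had 11.7, 114.3 and 443.2. Its ratio of ATF3-CPT to ATF3-KO was 37.9 (22.8 to 68.0), the largest of the shared sites by normalized tag count. The scores of this site were less far apart, 15, 105 and 218 in the same order. The AP-1 site nearest to NID1 had 26.5, 125.1 and 265.3.

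**Figure D3:**
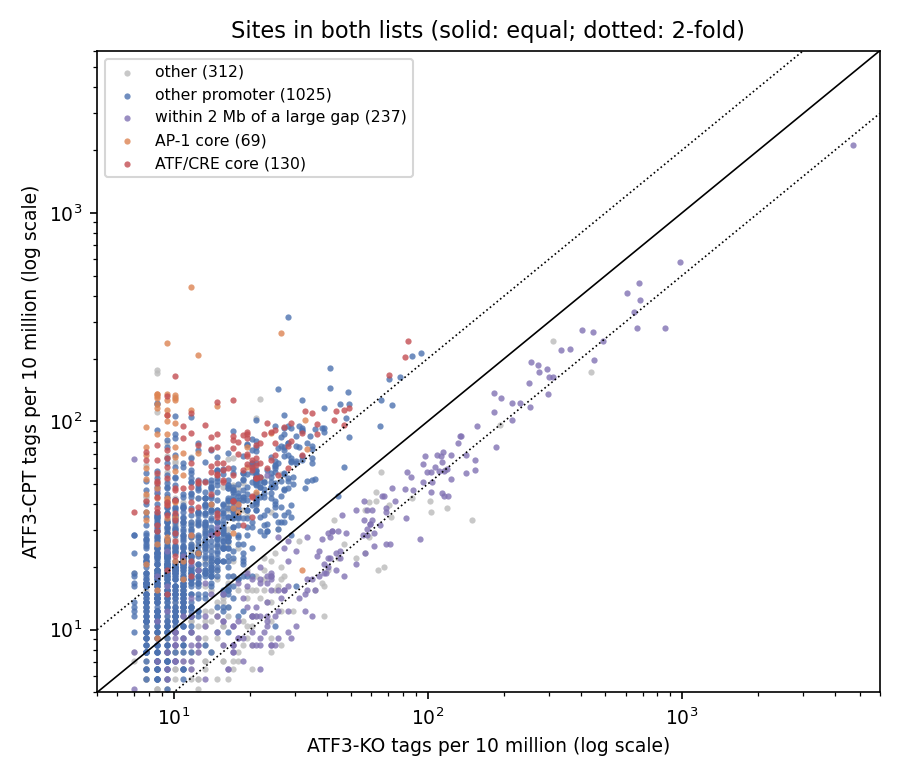
Normalized tag count of 1773 shared sites on chromosomes 1 to 22, X and Y in ATF3-KO (horizontal, log scale) and ATF3-CPT (vertical, log scale), with each site in the first class it meets, in the order ATF/CRE core, AP-1 core, near a large gap, other promoter, other. The counts are not corrected for window length. The solid line marks equal counts and the dotted lines 2-fold. Core and promoter sites lie mostly above the solid line, and the 237 gap-flanking sites lie mostly below it, up to the highest counts.

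By tag counts not corrected for window length, 74 of the 134 sites at least 2-fold higher in ATF3-KO lay near large gaps and 15 lay on sequences outside chromosomes 1 to 22, X and Y. Near large gaps, 240 shared sites had a median ratio of 0.60 (0.56 to 0.62), where ATF3-KO was at least 2-fold higher at 30.8% and ATF3-CPT at 4.58%. Per base of window this ratio was 0.96 (0.89 to 0.99), with 2 sites at least 2-fold higher in ATF3-KO and 19 in ATF3-CPT, so little of the excess in ATF3-KO remained per base. The median ATF3-CPT over ATF3-Ctrl was 0.51 by tag count and 0.52 per base, while ATF3-Ctrl over ATF3-KO was 1.17 by tag count and 1.84 per base (232 sites). The highest of all ATF3-KO peaks, nearest to FAM72B at chr1:121485094-121485292, had 4720.6 in ATF3-KO, 4300.4 in ATF3-Ctrl and 2129.1 in ATF3-CPT. Away from the gaps, 4 shared sites were nuclear copies of mitochondrial DNA, with a fraction of at least 0.5 of their words of 20 bases present in the mitochondrial genome. The copy near OR4F16 had 440.7 in ATF3-KO, 178.4 in ATF3-Ctrl and 172.1 in ATF3-CPT. The copy nearest to IRS2 had 117, 51 and 58.2 in the same order, and the copy nearest to EPHA6 had 64, 20.1 and 19.4. At these 3 copies the count was highest in ATF3-KO, whose window was 198 bp against 124 bp in ATF3-CPT and 126 bp in ATF3-Ctrl. The share of tags in peaks moved in the opposite direction, from 0.56% in ATF3-KO through 5.60% in ATF3-Ctrl to 12.76% in ATF3-CPT, and its part in these ratios was not tested.

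Seen from the damage side, 1838 of the 70702 ATF3-CPT peaks (2.6%) overlapped an ATF3-KO peak. Their median score was 34 (quartiles 21 and 59), against 16 (11 and 29) in the 68864 without one. The peaks without an ATF3-KO peak fell apart by the ATF3-Ctrl list. The 25443 that ATF3-Ctrl shared had a median score of 33 and the 43421 that it did not share one of 13. Split in the same way, the 1662 peaks with a knockout partner that ATF3-Ctrl shared had a median score of 37. The 176 that it did not share had one of 15. Each median was slightly above that of the matching peaks without a knockout partner. The promoter share of the 1838 shared peaks was 66.3% (64.0 to 68.4). Among peaks without a knockout partner it was 23.4% in those that ATF3-Ctrl shared and 16.6% in those that it did not share.

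At a like score, promoter peaks had an ATF3-KO partner more often than other peaks. In ATF3-CPT peaks of score 50 to 99, 31.0% of 1182 promoter peaks (28.4 to 33.7) and 2.17% of 5335 other peaks (1.82 to 2.60) had one. At a score of 100 or more the shares were 32.2% (26.3 to 38.8) and 4.67% (3.53 to 6.16), and at 9 to 19 they were 1.87% and 0.702%. By core, where scores were not matched, 21.0% of 571 promoter peaks with the ATF/CRE core had an ATF3-KO partner. Of 2364 promoter peaks with the AP-1 core and no ATF/CRE core, 1.31% had one, and of 11321 promoter peaks with neither, 9.06%. The median ATF3-CPT scores of these promoter classes were 44, 23 and 15 in this order, and the part of score in the shares was not tested. Among 27457 AP-1 peaks outside promoters the share was 0.204%.

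**Figure D4:**
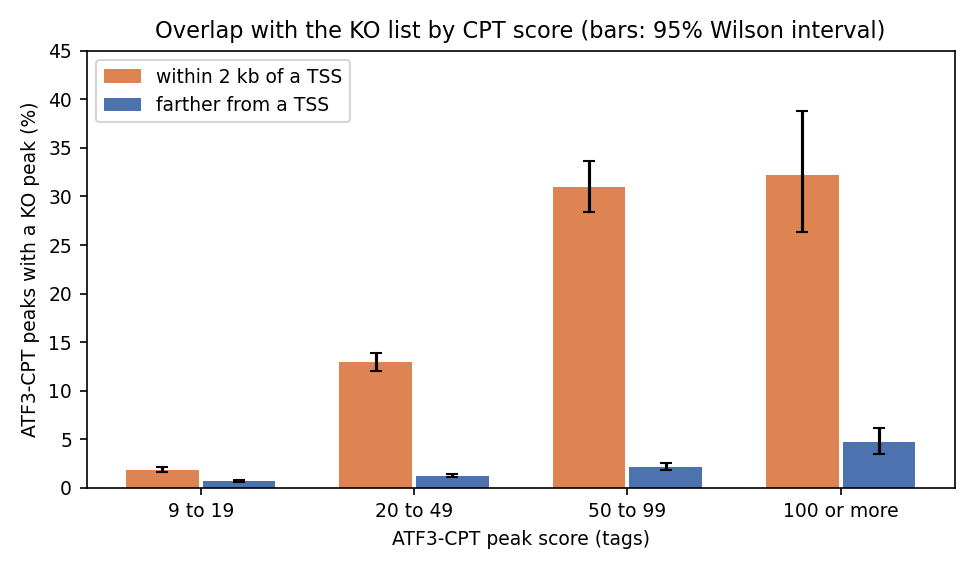
Percent of ATF3-CPT peaks that overlap an ATF3-KO peak, by ATF3-CPT score and by distance to a TSS, with 95% Wilson intervals. In every score band the promoter bar is higher, with 32.2% against 4.67% at a score of 100 or more.

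The strongest ATF3-CPT promoter peaks without an ATF3-KO peak were found at STK40, ATF3, FBXO31, HERPUD1 and PYCR1. STK40, the gene for a pseudokinase, had 449.6 (417 to 484) in ATF3-CPT and 356.1 in ATF3-Ctrl. HERPUD1, a gene of the endoplasmic reticulum stress response, had 249.7 and 302.8, and PYCR1, a gene of proline synthesis, had 237.4 and 354.5. SPRY1, which encodes an inhibitor of growth factor signaling, had 91.2 and 31.7. GSN, which encodes the actin-severing protein gelsolin, had 73.8 and 37.8, and UTP23, a gene of ribosome synthesis, had 34.3 and 23.2. No peak lay within 2 kb of a TSS of HYI or IGFL3 in ATF3-CPT or ATF3-KO. The paper shows an ATF3 peak near HYI in wild-type cells and places ATF3 at an IGFL3 site after CPT. A peak farther than 2 kb from the TSS was not counted here.

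At the gene level, 1558 of 20163 protein-coding genes (7.73%) had an ATF3-KO peak in a promoter and 11021 (54.7%) an ATF3-CPT peak. Of the 1558, 1539 also had an ATF3-CPT promoter peak and 1486 had one in ATF3-Ctrl as well. The 53 genes with a promoter peak in ATF3-KO and ATF3-CPT and not in ATF3-Ctrl included NCL, NFKB2, SDHD, HEXIM1 and TDG. The 19 with one in ATF3-KO and not in ATF3-CPT included FOXO1, MYB, HDAC3 and TRIM25. An ATF3-CPT promoter peak without an ATF3-KO promoter peak was found at 9482 genes.

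Genes of protein synthesis were read against all protein-coding genes, 7.73% of which had an ATF3-KO and 54.7% an ATF3-CPT promoter peak. Of 88 cytoplasmic ribosomal protein genes, a list by symbol that also takes in RPL7L1, 26 had an ATF3-KO promoter peak (29.5%, 21.0 to 39.8). An ATF3-CPT promoter peak was found at 73 (83.0%). Normalized tag counts in ATF3-KO ran from 7.8 to 46.8 over these 26, and the highest was at RPL18, with 46.8 in ATF3-KO, 57.2 in ATF3-Ctrl and 60.2 in ATF3-CPT. The ATF3-CPT list shared 25 of the 26 sites, and 13 of them were at least 2-fold higher in ATF3-CPT. RPL9 was among these 13, with 9.4, 37.1 and 43.3. A like share of all 1177 shared promoter sites, 639 (54.3%), was at least 2-fold higher in ATF3-CPT. Of 28 genes of a list that joins translation factors with RNA-binding proteins such as nucleolin (NCL), 8 had an ATF3-KO promoter peak (28.6%, 15.3 to 47.1) and 28 an ATF3-CPT one. The 8 were EEF1D, EEF1G, EIF2S2, EIF3A, EIF4B, NCL, PABPC1 and TPT1. EIF2S2, which encodes a subunit of the initiation factor eIF2, had 19.5 in ATF3-KO, 112.8 in ATF3-Ctrl and 77.0 in ATF3-CPT. None of 66 replication-dependent histone genes had an ATF3-KO promoter peak, which allows a share of up to 4.55%. An ATF3-CPT promoter peak was found at 42 of them (63.6%).

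Among stress genes, the p53 targets were read first. Of 31 p53 target genes, 5 had an ATF3-KO promoter peak (16.1%, 7.09 to 32.6) and 29 an ATF3-CPT one, against 7.73% and 54.7% of all protein-coding genes. The interval of the first share includes its background. TRIAP1, which encodes an inhibitor of apoptosis, had 86.6 in ATF3-KO, 274.2 in ATF3-Ctrl and 205.7 in ATF3-CPT, and 460.6 in p53-CPT with no peak in p53-KO. BAX, the pore-forming inducer of apoptosis, had 9.4, 12.4 and 22.6 in the ATF3 libraries, and PPM1D, the gene for a phosphatase that opposes p53, had 8.6, 10.8 and 36.9. FDXR and POLH were the other members. CDKN1A, MDM2, BBC3, GADD45A and GDF15 had ATF3-CPT promoter peaks of 39.5, 30.4, 42.1, 63.4 and 77.6 and no ATF3-KO promoter peak. The values are those of 1 peak for each gene. At CDKN1A and BBC3 this peak overlapped no ATF3-Ctrl peak, but one lay 236 bp and 276 bp away. An ATF3-Ctrl promoter peak was found at 29 of the 31 genes (93.5%), against 39.3% of all protein-coding genes.

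Among 35 genes of AP-1, ATF and CREB factors, CREB3, CREM, FOSB, FOSL1 and MAFG had an ATF3-KO promoter peak (14.3%, 6.26 to 29.4). The FOSL1 site had 7.8 in ATF3-KO and 9.3 in ATF3-Ctrl and was not shared with ATF3-CPT. Of 29 genes of the integrated stress response, EIF2AK3 and SLC3A2 had one (6.90%), the latter at a peak that also lies in the promoter of SNHG1, and of 36 immediate early genes FOSB and FOSL1 (5.56%). Of 31 genes of chaperones, CANX, CCT4, DNAJB9 and PDIA4 had one (12.9%, 5.13 to 28.9). CANX had 10.1 in ATF3-KO, 100.4 in ATF3-Ctrl and 82.8 in ATF3-CPT, a ratio of 8.17 (4.61 to 15.8) to the knockout. LDHA and PKM had one among 34 genes of glycolysis and the cytoskeleton (5.88%). None of these 5 shares stood apart from the background of 7.73%, since 3 lay below it and the intervals of the other 2 include it. Of 45 abundant noncoding RNA genes, 8 had an ATF3-KO promoter peak (17.8%, 9.29 to 31.3), against 3.44% of genes of every type. The 8 were NEAT1, SNHG1 and 6 small nuclear RNA genes. An ATF3-CPT promoter peak was found at 43 of the 45 (95.6%), against 29.2% of genes of every type. Among genes with an ATF3-CPT promoter peak, the ATF3-KO share was 18.6% (9.74 to 32.6) in the list. It was 11.5% in genes of every type, which this interval includes. Small nuclear RNA genes have near-identical copies, among which short tags can be misplaced.

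**Figure D5:**
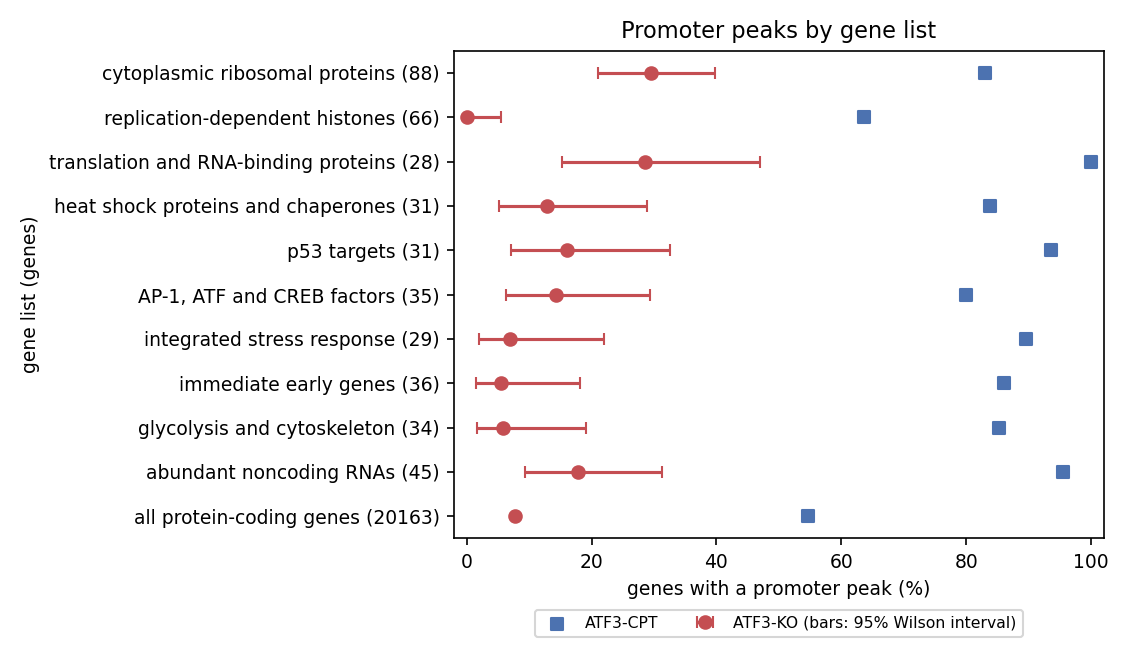
Percent of genes of each list with a promoter peak in ATF3-KO (circles, with 95% Wilson intervals) and in ATF3-CPT (squares). The ribosomal protein list and the translation and RNA-binding protein list stand at 29.5% and 28.6% in ATF3-KO, against 7.73% of all protein-coding genes.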

How the data were processed

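ChIP-seq libraries of HCT116 cells were compared through their deposited peak lists. The authors aligned reads to hg19 with BWA 0.6.1 and called peaks per library with HOMER 4.1, without an input control in the commands of the file headers, at a false discovery rate of 0.001 and a fold of 4 over the local 10000 bp. The normalized tag count is a signal per 10000000 tags that the authors computed. Scores were used as deposited and were not adjusted for depth. The focus ratio (a fraction), the local fold ratio and its p-value, and the clonal fold were deposited by the authors; none entered a test. Total tags were 15457013 (ATF3-CPT), 12820520 (ATF3-KO), 12947516 (ATF3-Ctrl), 3169743 (p53-CPT) and 1984941 (p53-KO), and 3 tags were worth a normalized tag count of 1.94, 2.34, 2.32, 9.46 and 15.1.

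Overlaps were computed in Python 3.11.15 on all sequences. Promoters and sequence cores were taken on chromosomes 1 to 22, X and Y of GRCh37. Promoters reached 2 kb from the TSS of basic transcripts of protein-coding genes in GENCODE release 44 (lifted to GRCh37). This definition was chosen after the data had been seen, because it gave the promoter share of ATF3-Ctrl (25.8%) of an earlier analysis. Other definitions gave 21.5% to 31.0%. For its ATF3-specific peaks, a set without those found in ATF3-KO cells, the paper reports a lower promoter share than any of these definitions gave. Shares have Wilson intervals, as do all bars in the figures, a share of 0 has in the text the limit that 3 counts would give, normalized tag counts exact Poisson intervals, and ratios conditional exact intervals on tags recovered from the normalized tag counts. The overlap and interval code was tested on simulated data. With 1 library per condition no p-value was computed.

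The members, gene lists and comparisons were chosen with earlier results of these data known. Cores other than ATF/CRE and AP-1, score bands, repeat classes and mitochondrial copies were chosen after the peaks had been examined. Low complexity means that a fraction under 0.5 of the words of 6 bases in a 300 bp window are distinct. Named sites were the nearest genes of the highest-scoring peaks of each set, the highest-scoring promoter sites, list members with an ATF3-KO promoter peak and genes shown by the study. Sites with the largest or smallest ratio, the printed sequences and the repeat examples were picked after their values had been seen. Alternatives covered the overlap rule, score, peak number, window, chromosomes, promoter width and TSS definition. Some sites are not reported here.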

Additional observations from a re-analysis of the deposited data

Results flagged for a closer look

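Overlap with the p53 lists, which the comparison of the ATF3 lists does not use, was higher in p53-CPT than in p53-KO beyond counting error for 3 main sets of peaks. Of the ATF3-KO peaks that both wild-type lists shared, 13.7% (12.2 to 15.5) overlapped a p53-CPT peak and 10.2% (8.83 to 11.7) a p53-KO peak. Of the ATF3-CPT peaks shared with ATF3-KO, the shares were 12.7% (11.3 to 14.3) and 9.47% (8.21 to 10.9). Of the ATF3-CPT peaks without ATF3-KO, they were 1.07% (1.00 to 1.15) and 0.256% (0.221 to 0.296). In the remaining, smaller sets of ATF3-KO peaks the intervals overlapped. The shares were 11.6% and 6.85% in those shared with ATF3-CPT and not ATF3-Ctrl, and 20.9% and 12.9% in those shared with ATF3-Ctrl and not ATF3-CPT. In those of neither list the share was 11.3% in both p53 lists. Both shares of a set are of the same peaks, a pairing that these intervals do not use. The sets shared between ATF3-KO and ATF3-CPT hold many of the same sites. The p53-CPT list held 9211 peaks from 3169743 tags and the p53-KO list 7879 peaks from 1984941 tags, and the part of this difference in depth was not tested.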

How the results depend on the processing

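No paired analysis was possible because each condition had 1 library, and for the same reason no replicate could be left out. With sites below a score of 11 or 9 unlisted, a missing peak is no sign of absent signal. Of 129 recomputed values, 77 stayed within counting error or, for counts, within 1.5 times.

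With a score of at least 15 in every list, 982 ATF3-KO peaks were shared with ATF3-CPT, 49 with ATF3-CPT and not ATF3-Ctrl, and 87 with ATF3-Ctrl and not ATF3-CPT; 985 ATF3-CPT peaks were shared with ATF3-KO. The median ATF3-CPT scores became 48 with and 26 without ATF3-KO, the promoter shares 10.4% in neither list and 19.6% in ATF3-CPT without ATF3-KO, the genes with an ATF3-KO promoter peak 794, and the ribosomal protein genes 15. With as many ATF3-CPT as ATF3-Ctrl peaks, the sets held 51 and 361 peaks, the median scores were 41 and 30, the promoter shares 72.4% (both lists), 73.5% (ATF3-CPT and not ATF3-Ctrl) and 18.2% (ATF3-CPT without ATF3-KO), and 5067 genes had an ATF3-CPT and no ATF3-KO promoter peak. By normalized tag count in place of score the medians were 24.6 and 10.4.

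With an overlap of at least 0.5 of the shorter peak, the promoter share in neither list was 33.4%. With promoters of 1 kb, that of ATF3-CPT without ATF3-KO was 15.8%. With TSS of genes of every type, the promoter shares were 73.5%, 63.8%, 39.2% and 26.6% in the order both lists, ATF3-CPT and not ATF3-Ctrl, neither, and ATF3-CPT without ATF3-KO, and 16568 genes had an ATF3-CPT and no ATF3-KO promoter peak. Chosen after seeing the data, other TSS definitions gave 15.7% (5' end of the gene), 16.7% (canonical transcript) and 24.6% (every transcript) for ATF3-CPT without ATF3-KO, and 61.2% (5' end) for both lists. Also chosen afterwards, leaving out gap-flanking and low-complexity peaks gave 48 peaks in ATF3-Ctrl and not ATF3-CPT, a median ATF3-CPT score of 38 for peaks shared with ATF3-KO, promoter shares of 83.1%, 64.4% and 46.7% (both lists, ATF3-CPT and not ATF3-Ctrl, neither) and a median ratio at shared sites of 2.07.

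Per base of window, the median ratio was 2.81, and 2 directions reversed: 1.22 outside promoters, and 1.52 in the sites shared with ATF3-CPT and not ATF3-Ctrl. The gap-flanking sites moved from 0.60 to 0.96, and the sites at least 2-fold higher in ATF3-KO fell to 8 in all and 2 near gaps, counts added after seeing the data. This scale multiplies nearly every ratio alike, so it says nothing on the order of the classes (AP-1 8.91, ATF/CRE 5.82, promoters 3.37). By score per tag of the library, the median ratio was 1.66 over all shared sites. It was 4.51 at AP-1 sites, 2.91 at ATF/CRE sites, 1.89 at promoters and 0.64 near gaps. The ATF/CRE, promoter and gap values lay outside the interval of the main ratio.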
